A study of Mus musculus with 8 samples.

Results

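The comparison set T cells of aged injured mouse brains against those of young injured mouse brains, both given a control antibody, by single-cell T cell receptor (TCR) sequencing. All cells of the library ATBI_Isotype (aged, traumatic brain injury, isotype) and of the library YTBI_Isotype (young, traumatic brain injury, isotype) were used, 1286 of the 2986 cells and 690 of the 1693 clonotypes in the series. Male C57BL/6 mice were 80 to 82 weeks old (aged, from National Institute on Aging colonies) or 13 to 15 weeks old (young, from The Jackson Laboratory) at the time of a controlled cortical impact. They received 300 µg of the isotype antibody (clone LTF-2) from 2 h after injury and every 2 weeks, and CD45+ brain leukocytes were sorted 2 months after injury. Each library was a pool of 2 mice, so each age had 1 library. The remaining libraries, YTBI_aCD49d and ATBI_aCD49d, came from mice of the same ages injured and dosed in the same way with an antibody to CD49d, the alpha-4 integrin chain, and served here only as another aged and young pair that shares no mice with the isotype pair.

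A TCR beta chain is joined from a TRBV, a D and a TRBJ segment, and an alpha chain from a TRAV and a TRAJ segment. The join encodes CDR3, the loop that contacts the presented peptide, and bases trimmed or added at the join make most CDR3s private to 1 clone. Segment usage counted over clonotypes reads how the repertoire was built and selected, whereas usage counted over cells is weighted by how far each clone divided. Both counts were therefore made for every segment, with a clonotype being the cells to which the deposited files assign the same receptor.

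YTBI_Isotype held 262 cells in 230 clonotypes and ATBI_Isotype held 1024 cells in 460 clonotypes, with 4473 and 10419 TCR molecules (UMIs). A beta chain was found in 252 and 1004 cells, and an alpha chain in 217 and 692 cells, which is 82.8% of the young and 67.6% of the aged cells. Young cells had a median of 15 TCR UMIs and aged cells a median of 9, and the part of this gap in depth in the alpha results was not tested. No cell barcode was shared by the 2 libraries. The transcriptomes were not analysed here, so the cells were known as T cells only by their productive TCR. With 1 library per age no test between ages was possible. Shares are given with 95% exact Clopper-Pearson intervals or, for differences, Newcombe intervals built from them. These cover counting error only, not the spread between mice, and cells of 1 clone are not independent draws. A segment was compared if at least 10 clonotypes of either library carried it, which left 55 segments, and it is called higher or lower where the shares differed at least 1.5-fold. Since the aged library held more clonotypes, 31 of the 55 segments reached that minimum in the aged library only and 1 in the young library only. Of the 16 called higher by clonotype, 14 were of the former kind, so the balance of higher and lower calls partly follows from the minimum and is not read as a result.

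By clonotype, TRBV31, TRBV13-3 and TRBV1 took larger shares of the aged than of the young repertoire, and TRBV19 and the joint call TRBV12-2+TRBV13-2 took smaller ones. Of 18 TRBV segments, 8 (44.4%) passed 1.5-fold by clonotype, and 9 of the 18 reached the minimum in the aged library only. TRBV31 was carried by 4 of 220 young and 28 of 449 aged clonotypes, 1.82% against 6.24%, a difference of 4.42 percentage points (interval 0.969 to 7.38) and 3.43-fold. This segment lies apart from the others, at chr6:41557691-41558452 on the minus strand of GRCm38, beyond the J segments, and joins them by inversion. TRBV13-3 went from 10 to 39 clonotypes (4.55% to 8.69%) and TRBV1 from 9 to 30 (4.09% to 6.68%), with intervals of the difference of -0.252 to 7.95 and -1.53 to 6.09 that reach below 0. TRBV19 went the other way, with 24 young and 25 aged clonotypes, 10.9% against 5.57%, a difference of -5.34 points (-10.6 to -0.775). TRBV13-1 was in 20 young and 34 aged clonotypes, 9.09% against 7.57%, within 1.5-fold.

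The most used call of the young library, TRBV12-2+TRBV13-2, is a fused name for 2 neighbouring genes on chromosome 6. Each of the 387 chains with this call in the series carried a framework 1 sequence seen in chains called TRBV13-2, and 0 carried one seen in chains called TRBV12-2, so its V region is that of TRBV13-2 (chr6:41121396-41121832, plus strand). By clonotype the joint call made up 44 of 220 young and 49 of 449 aged clonotypes, a share 1.83-fold higher in the young library, with a difference of -9.09 points (-15.6 to -3.06). Counted together with the chains called TRBV13-2 alone, the segment was in 21.4% of young and 13.6% of aged clonotypes, a difference of -7.78 points (-14.5 to -1.48). Of these 47 young and 61 aged clonotypes, 15 and 11 carried the invariant TRAV11 with TRAJ18 alpha chain described below. That chain also took a smaller share of the aged library. All 20 young and 21 aged clonotypes with it had a beta chain, so they count in the totals of 220 and 449. Their part in the TRBV13-2 difference is not separated here. The chains called TRBV13-2 alone went from 3 to 12 clonotypes, so that 1 of the 6 TRBV segments called higher by clonotype belongs to a gene that was lower once its calls were joined.

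Counted by cell, TRBV14 had the largest difference, followed by the joint call TRBV12-2+TRBV13-2, lower in the aged library with a difference of -11.4 points (-17.0 to -6.38). TRBV14 was in 13 young and 202 aged cells, 5.16% against 20.1%, a difference of 14.96 points (10.7 to 18.5), although by clonotype it was in 10 and 16, 4.55% against 3.56%. TRBV19, lower by clonotype, was higher by cell, with 26 young and 187 aged cells (10.3% against 18.6%, difference 8.31, 3.28 to 12.6). TRBV1 was higher on both counts, with 10 young and 86 aged cells, of which 44 were in 1 clone. TRBV13-3, higher by clonotype, had 16 young and 46 aged cells (6.35% against 4.58%, difference -1.77, -5.71 to 1.29). TRBV13-1 had 23 young and 35 aged cells (9.13% against 3.49%, difference -5.64, -10.0 to -2.13). Without clonotypes of 10 or more cells, which lowers the aged total from 1004 to 575 cells, TRBV13-1 made up 6.09% of aged cells, a difference of -3.04 points whose limits (-7.66 to 0.931) took in 0. Of the 18 TRBV segments 10 (55.6%) passed 1.5-fold by cell, and 4 of the 18 passed by clonotype and by cell in the same direction.

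**Figure D1:**
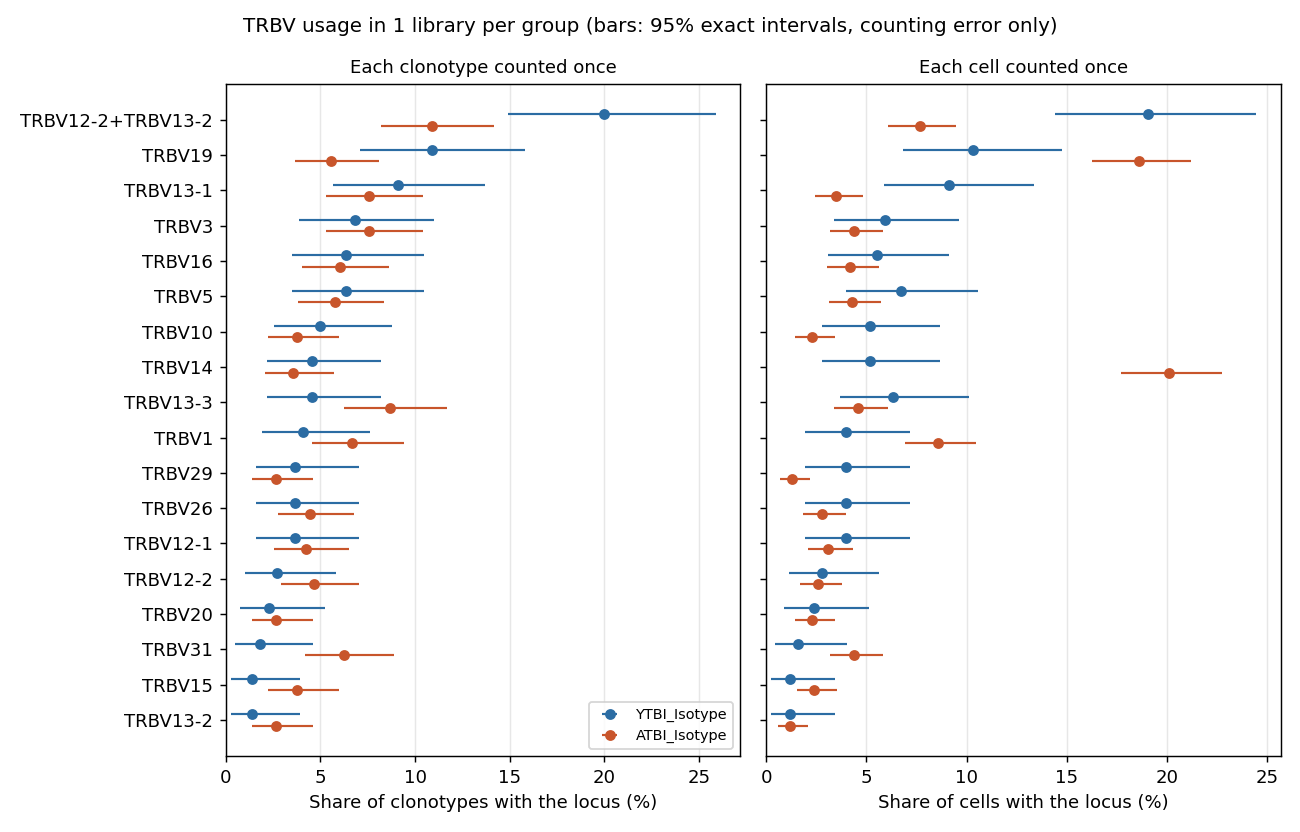
TRBV usage as the share (%) of clonotypes (left) and of cells (right) with a beta chain, for the 18 segments compared; points are the single library of each age and bars are 95% exact intervals for counting error. TRBV14 and TRBV19 of ATBI_Isotype sit at 20.1% and 18.6% by cell but at 3.56% and 5.57% by clonotype, whereas the joint call TRBV12-2+TRBV13-2 is lower in ATBI_Isotype in both panels.

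A handful of clones carried the excess of TRBV14 and TRBV19 cells. ATBI_Isotype had 9 clonotypes of 10 or more cells, holding 433 cells or 42.3% of the library, and YTBI_Isotype had 0, its largest clonotype having 7 cells. The largest aged clonotype, of 109 cells, paired TRBV19 and TRBJ1-4 with TRAV7N-6 and TRAJ9, and 106 of the 187 aged TRBV19 cells (56.7%) belonged to it. Those of 99 and 73 cells both paired TRBV14 and TRBJ1-2 with TRAV12-1 and TRAJ22. The clonotype of 51 cells paired TRBV19 and TRBJ2-1 with TRAV16 and TRAJ56, and that of 44 cells TRBV1 and TRBJ1-5 with TRAV14D-1 and TRAJ56. Without the 9 clonotypes of 10 or more cells, the difference by cell became -2.55 points for TRBV14 and -5.10 for TRBV19, both below 0 as by clonotype.

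The CDR3 sequences of these aged clones show how far each lies from its germline segments and how close the TRBV14 clonotypes of 99 and 73 cells are to each other. They are written 5′ to 3′ from the first base of the conserved cysteine codon, with capitals for bases that match neither the germline V segment read from its start nor the germline J segment read from its end (germline from GENCODE vM21 on GRCm38). Here and below, the cells in a label are those of the clonotype. The alpha chain itself was found in 71 of 109, 67 of 99, 44 of 73, 21 of 51 and 24 of 44 cells. Alpha shares by cell count only cells with an alpha chain.
109 cells, beta: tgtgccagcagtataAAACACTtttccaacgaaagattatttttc
109 cells, alpha: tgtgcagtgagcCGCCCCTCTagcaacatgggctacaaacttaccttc
51 cells, beta: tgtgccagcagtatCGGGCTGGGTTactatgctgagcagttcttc
51 cells, alpha: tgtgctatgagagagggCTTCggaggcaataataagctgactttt
44 cells, beta: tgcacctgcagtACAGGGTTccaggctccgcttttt
44 cells, alpha: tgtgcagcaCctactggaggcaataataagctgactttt
99 and 73 cells, alpha: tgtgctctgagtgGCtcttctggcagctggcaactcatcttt
The clonotypes of 99 and 73 cells had this identical alpha CDR3, and their beta CDR3s differed at 1 base, T5C (base of the 99-cell clonotype first, counted from 1 at the 5′ end), which stands in capitals here.
99 cells, beta: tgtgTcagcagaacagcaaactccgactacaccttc
73 cells, beta: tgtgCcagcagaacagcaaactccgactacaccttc
Together they held 172 cells. Whether they are descendants of 1 rearrangement was not tested, and the deposited files count them as separate clonotypes.

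The young library had no comparable clone. Its largest, of 7 cells, paired TRBV13-3 and TRBJ2-7 with TRAV9-2 and TRAJ33, and the next ones, each of 4 cells, carried TRBV5 with TRBJ2-1 and the joint call with TRBJ2-1. All 3 used a TRBJ2 segment, whereas 6 of the 9 aged clonotypes of 10 or more cells, with 358 of their 433 cells, used a TRBJ1 segment. Among all clonotypes with a beta chain, TRBJ2 was in 70.5% of young and 58.1% of aged ones, so these few clones show no preference by themselves.
7 cells, beta: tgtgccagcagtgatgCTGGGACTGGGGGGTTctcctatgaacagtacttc
7 cells, alpha: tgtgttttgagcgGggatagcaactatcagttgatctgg

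Over all 55 segments, 16 passed 1.5-fold in the same direction by clonotype and by cell, 14 passed by cell only and 6 by clonotype only. For 3 segments, TRBV19, TRBJ1-5 and TRAJ26, the calls had opposite directions. The sign of the difference changed between the counts for 20 of the 55. Of the segments furthest from an equal difference on the cell side, TRBV14, TRBV19, TRBJ1-2, TRBJ1-4, TRAJ22 and TRAJ9 all belonged to the aged clonotypes of 109, 99 or 73 cells.

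**Figure D2:**
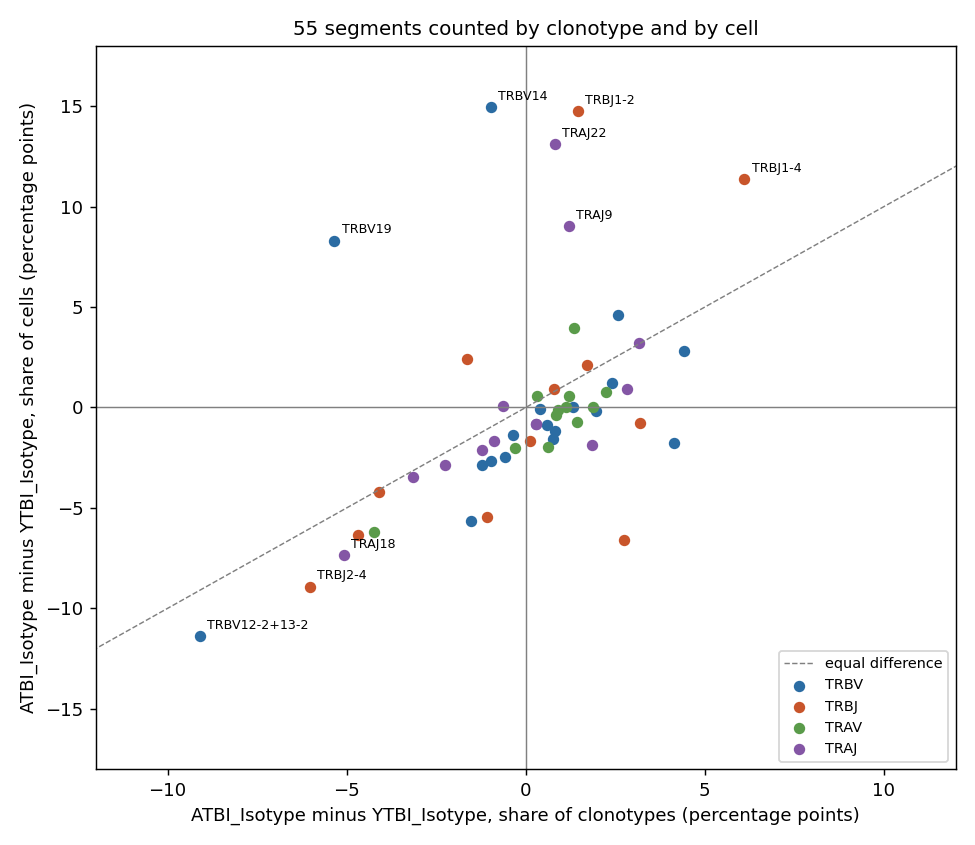
Difference in share between ATBI_Isotype and YTBI_Isotype (percentage points) by clonotype (x axis) and by cell (y axis) for the 55 segments compared, 1 point per segment; the dashed line marks an equal difference. TRBV14, TRBJ1-2, TRAJ22 and TRAJ9 lie near 0 on the x axis and 9.03 points or more above 0 on the y axis, TRBV19 has opposite signs, and TRBV12-2+TRBV13-2, TRBJ2-4 and TRAJ18 are below 0 on both axes.

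The TRBJ segments lie in 2 clusters, TRBJ1 and TRBJ2, each followed by its own constant gene, and the aged repertoire was shifted from the latter to the former. By clonotype 155 of 220 young and 261 of 449 aged clonotypes with a beta chain used TRBJ2, 70.5% (64.0 to 76.4) against 58.1% (53.4 to 62.7), a difference of -12.3 points (-19.9 to -4.35). By cell the shares were 73.0% and 41.1%, a difference of -31.9 points (-38.1 to -25.2). The constant gene calls follow from the J calls in this locus order, so they are no separate measure of the shift. Every TRBJ2 chain with a called constant gene carried TRBC2 (189 of 189 young and 418 of 418 aged). Every TRBJ1 chain carried TRBC1 (72 of 72 and 592 of 592).

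The lower TRBJ2 share was not confined to expanded clones. Among clonotypes seen in 1 cell it was 68.8% of 202 young and 59.8% of 363 aged clonotypes, a difference of -9.03 points (-17.2 to -0.479). Among clonotypes of 2 or more cells it was 16 of 18 young (88.9%) and 44 of 86 aged (51.2%). It was lower in the aged library both among clonotypes with TRBV13-2, joint calls included (80.9% of 47 against 57.4% of 61), and among those with any other TRBV (68.2% of 176 against 58.2% of 390). Without the 9 large aged clonotypes the difference by cell was -14.2 points, so that these clonotypes moved it by more than 1.5-fold but did not set its direction.

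By single segment, 5 of 12 TRBJ segments (41.7%) passed 1.5-fold by clonotype and 8 (66.7%) by cell. TRBJ1-4 (chr6:41534811-41534861) went from 14 to 56 clonotypes, 6.36% to 12.5%, a difference of 6.11 points (1.09 to 10.6). By cell it went from 15 to 174, and without the largest TRBJ1-4 clone of each library the difference by cell fell from 11.4 to 2.37 points. TRBJ2-4 (chr6:41543362-41543410) went down on both counts, with 27 young and 28 aged clonotypes (12.3% against 6.24%, difference -6.04, -11.5 to -1.22) and with 30 cells in each library (11.9% against 2.99%). Its largest clone had 3 young and 2 aged cells, but the large aged clones of other segments count in the total. Without clonotypes of 10 or more cells the aged share of TRBJ2-4 was 30 of 575 cells (5.22%) and the difference by cell -6.69 points (-11.6 to -2.39). TRBJ2-5 and TRBJ2-1 differed by -4.69 (-10.2 to 0.143) and -4.11 points (-10.3 to 1.56) by clonotype. TRBJ1-2 showed the pattern of a clone, with 12 young and 31 aged clonotypes (5.45% against 6.90%) but 14 and 204 cells (5.56% against 20.3%). TRBJ2-7, the most used TRBJ segment by clonotype in both libraries, was in 18.2% of young and 20.9% of aged clonotypes, and in 19.8% and 13.2% of cells. TRBJ1-1 likewise changed sign, with a difference of 3.20 points by clonotype and -0.773 by cell.

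**Figure D3:**
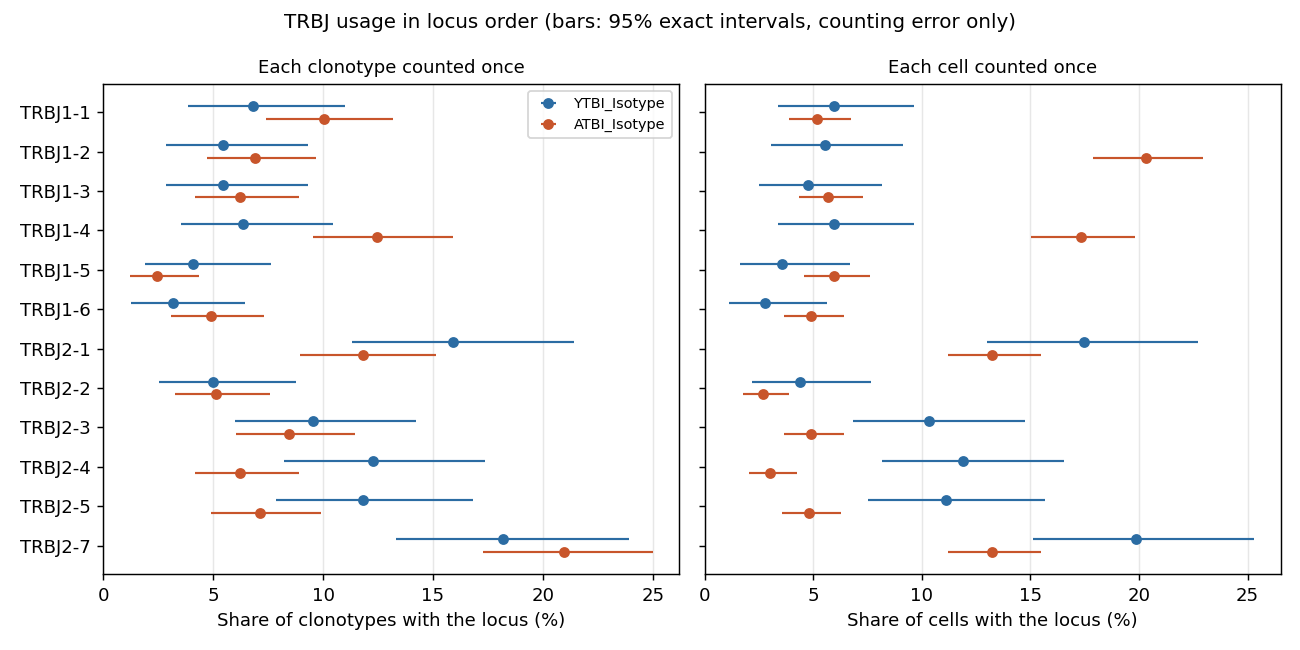
TRBJ usage in locus order as the share (%) of clonotypes (left) and of cells (right) with a beta chain; points are the single library of each age and bars are 95% exact intervals for counting error. By clonotype TRBJ1-4 is higher and TRBJ2-4 lower in ATBI_Isotype, and by cell TRBJ1-2 and TRBJ1-4 stand out at 20.3% and 17.3% in ATBI_Isotype.

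The other pair of libraries, from mice given the antibody to CD49d, gave a difference of TRBJ2 by clonotype in the same direction, 68.0% in YTBI_aCD49d and 62.2% in ATBI_aCD49d, -5.75 points (-11.8 to 0.383). By cell it gave 69.8% and 70.5%. For single segments the pairs diverged more. TRBV31 differed by -4.72 points by clonotype between the aged and young library of that pair, the joint TRBV12-2+TRBV13-2 call differed by -0.628 and TRBJ1-4 by -0.295. TRBV19 and TRBJ2-4, lower in the aged library under isotype, differed by 2.07 and 0.0612 points in that pair. Of the 25 segments past 1.5-fold by clonotype under isotype, 16 had the same sign of difference in the other pair. Over all 55 segments compared, 32 had the same sign, so the called segments are not read as agreeing more often. As a whole, TRBV usage by clonotype differed by 20.9 points between YTBI_Isotype and ATBI_Isotype (the summed absolute differences divided by 2), by 16.2 between the young libraries and by 12.4 between the aged libraries. The aged and young libraries of the other pair differed by 15.7, ATBI_Isotype and YTBI_aCD49d by 12.3, and YTBI_Isotype and ATBI_aCD49d by 20.6. The 3 TRBV values with YTBI_Isotype were thus the highest, and libraries of different age were not always further apart than those of the same age. YTBI_Isotype also had the fewest clonotypes with a beta chain, 220 against 449 in ATBI_Isotype, 453 in YTBI_aCD49d and 527 in ATBI_aCD49d. This measure rises with counting error and was not matched for clonotype number. For TRBJ by clonotype the 3 highest values were those with ATBI_Isotype, at 16.8 against YTBI_Isotype, 15.05 against ATBI_aCD49d and 12.4 against YTBI_aCD49d, while the young libraries differed by 10.4. By cell the TRBV measure gave 33.4 for the isotype pair, 18.6 for the young libraries and 38.6 for the aged libraries, the highest of the 6.

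On the alpha side, the chain of invariant natural killer T cells took a smaller share of the aged library. These cells join TRAV11 to TRAJ18 in a nearly fixed CDR3 and recognise lipids on CD1d. The TRAV11 with TRAJ18 pair was in 20 of 193 young and 21 of 343 aged clonotypes with an alpha chain, 10.4% against 6.12%, a difference of -4.24 points (-9.91 to 0.745). By cell it was 9.22% and 3.03%, a difference of -6.18 points (-11.0 to -2.35). These clonotypes were not expanded, the largest having 1 young and 2 aged cells, but the large aged clones of other segments count in the total. Without clonotypes of 10 or more cells the difference by cell was -4.28 points (-9.29 to 0.0298). Paired beta chains used TRBV13-2, joint calls included, in 15 of 20 young and 11 of 21 aged clonotypes, and any TRBV13 segment in 17 and 19. In YTBI_aCD49d and ATBI_aCD49d the pair was in 9.33% and 8.15% of clonotypes.

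The invariant chains were close to germline, and 3 nucleotide forms that differ at the V to J join made up 17 of the 20 young and all 21 aged chains. They are shown because they were also the alpha sequences most often common to both libraries, and capitals again mark bases outside the germline segments.
4 young and 9 aged chains: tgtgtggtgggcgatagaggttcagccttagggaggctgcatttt
6 young and 5 aged chains: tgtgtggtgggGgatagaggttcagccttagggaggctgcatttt
7 young and 7 aged chains: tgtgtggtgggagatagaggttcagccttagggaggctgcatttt
All 3 encode the same 15 residues. The young library had 6 nucleotide forms of this CDR3 in all, encoding 3 protein forms, and the aged library had 3, encoding 1.

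Of 12 TRAV segments, 6 (50.0%) passed 1.5-fold by clonotype and 5 (41.7%) by cell, and 11 of the 12 reached the minimum in the aged library only. TRAV11 (chr14:53519303-53519859) was called lower by clonotype, and all its chains in these libraries were joined to TRAJ18. TRAV3D-3 had 3 young and 13 aged clonotypes (1.55% against 3.79%), TRAV10N had 2 and 10 (1.04% against 2.92%) and TRAV13-1 had 4 and 12 (2.07% against 3.50%). All 3 intervals of the difference reached below 0, at -1.17, -1.18 and -2.14. TRAV12D-3 was nearly level by clonotype, at 4.66% and 4.37%. By cell the highest values were outside these 12 segments, since TRAV12-1 (3 young and 129 aged cells, 1.38% against 18.6%) and TRAV7N-6 (3 and 72 cells, 1.38% against 10.4%) were each in fewer than 10 clonotypes of either library. TRAV12-1 was carried by the aged clonotypes of 99 and 73 cells, and TRAV7N-6 by that of 109 cells. Among the 12, TRAV14D-1 had 3 young and 37 aged cells (1.38% against 5.35%), and 24 of the 37 belonged to the aged clonotype of 44 cells. TRAV segments come in near-identical copies with D and N suffixes, so calls among copies are uncertain.

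Of 13 TRAJ segments, 6 (46.2%) passed 1.5-fold by clonotype and 10 (76.9%) by cell, and 9 of the 13 reached the minimum in the aged library only. TRAJ21 had 4 young and 18 aged clonotypes (2.07% against 5.25%, difference 3.18, -0.614 to 6.46), TRAJ12 had 3 and 15, and TRAJ26 had 6 and 17. TRAJ18 (chr14:54200777-54200842) had 25 and 27, a difference of -5.08 points (-11.2 to 0.457), TRAJ34 10 and 7, and TRAJ57 10 and 10, all lower as a share of the aged library. Of the TRAJ18 clonotypes, 20 young and 21 aged carried the invariant TRAV11 with TRAJ18 chain, so the TRAJ18 difference largely repeats that of the invariant chain. By cell the segments of the largest aged clones came first. TRAJ22 (chr14:54197248-54197307) was in 23 young and 164 aged cells (10.6% against 23.7%) but in 8.81% and 9.62% of clonotypes, and TRAJ9 (chr14:54209393-54209450) was in 8 and 88 cells, of which 71 were in 1 clone.

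TRAJ position along the alpha locus differed little, and the TRAV segments nearest the J segments took a smaller share of the aged library. TRAJ segments on the V side, numbered 40 or higher, were used by 23.3% of young and 23.9% of aged clonotypes, a difference of 0.591 points (-7.36 to 8.15), and by 22.1% and 20.8% of cells. The TRAV segments next to the J segments (TRAV17, TRAV18, TRAV19 and TRAV21) were in 10 young and 8 aged clonotypes, 5.18% against 2.33% (difference -2.85, -7.20 to 0.617). By cell they were in 10 young and 11 aged cells, 4.61% against 1.59% (difference -3.02, -6.81 to -0.340), and without clonotypes of 10 or more cells the interval reached above 0 (difference -2.02, -5.94 to 1.08). Chains with these TRAV segments had a mean TRAJ number of 51.7 ± 7.15 (SD, 10 chains) in the young and 50.5 ± 6.57 (8 chains) in the aged library, so both joined the J segments on the V side.

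**Figure D4:**
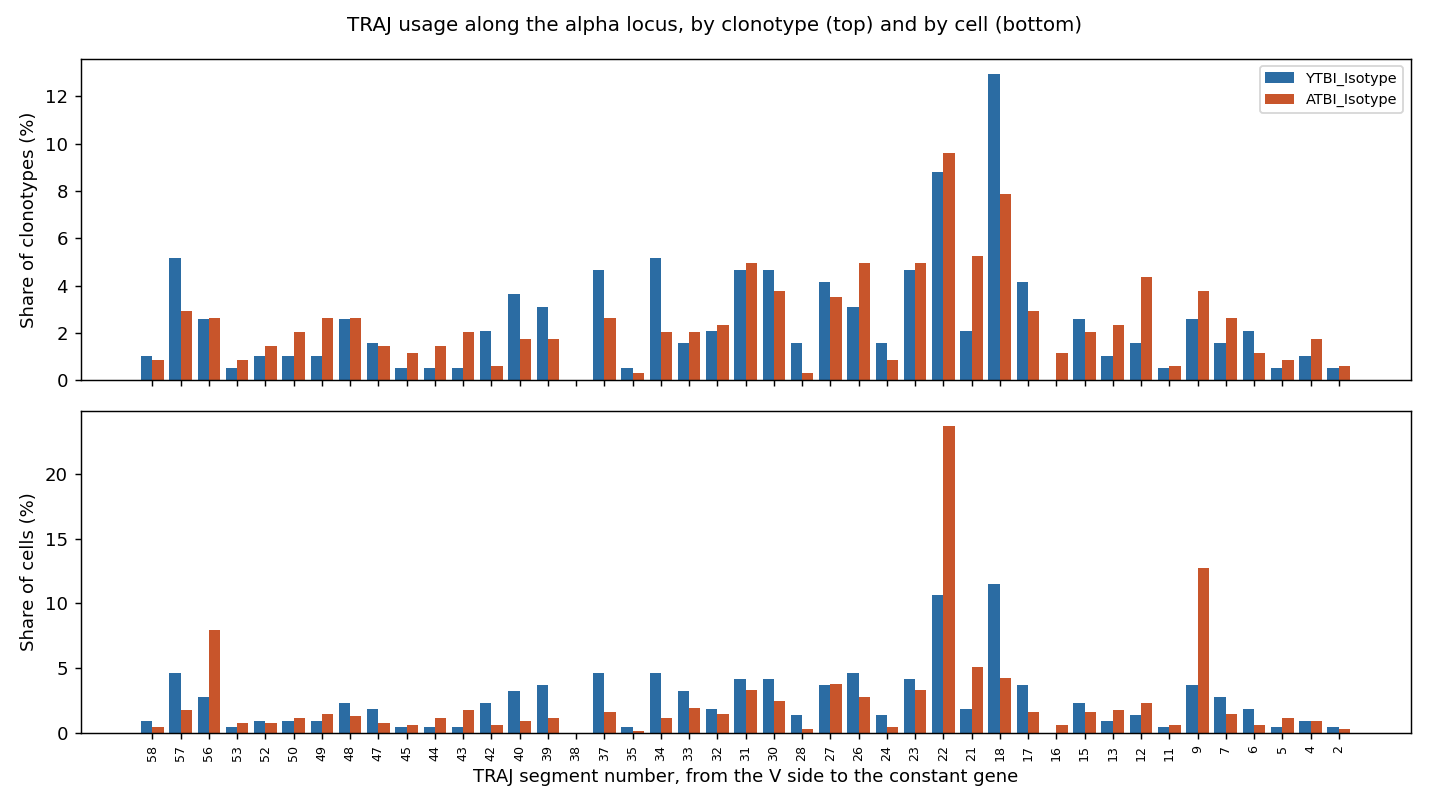
TRAJ usage in locus order, from the V side (left) to the constant gene (right), as the share (%) of clonotypes (top) and of cells (bottom) with an alpha chain; bars are the single library of each age. TRAJ18 is lower in ATBI_Isotype in both panels, and TRAJ22 and TRAJ9 reach 23.7% and 12.7% of cells in ATBI_Isotype against 9.62% and 3.79% of clonotypes.

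The number of V to J pairings was compared at equal numbers of chains, with UMIs per cell left unmatched. YTBI_Isotype used 126 distinct TRBV with TRBJ pairs in 230 chains, and ATBI_Isotype used 182 in 461 chains, or 133.1 expected in 230 chains drawn without replacement (SD of the draw 4.23), a difference of 7.05 pairs (-1.23 to 15.3). For TRAV with TRAJ the numbers were 172 in 207 young chains and 297 in 364 aged chains, or 179.6 expected in 207 (SD of the draw 3.52), a difference of 7.62 pairs (0.722 to 14.5). These intervals cover the draw only. The alpha interval reached below 0 with only cells that had both chains (-0.835 to 12.8), without cells with extra chains (-2.13 to 11.3) and with clonotypes defined by the beta chain (-0.674 to 12.9). Without the invariant TRAV11 with TRAJ18 clonotypes the alpha difference was -0.0323 pairs. Of the young pairs 80.2% were also seen in the aged library for beta and 19.8% for alpha, and of the aged pairs 55.5% and 11.4% were seen in the young library.

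Single pairs rested on few clonotypes. The joint TRBV12-2+TRBV13-2 call joined to TRBJ2-5 had 10 young and 2 aged clonotypes (difference -4.10 points, -7.78 to -1.49), and joined to TRBJ2-1 it had 10 and 4 (difference -3.65, -7.37 to -0.937). With TRBJ2-4 it had 7 and 5. TRBV13-3 with TRBJ2-7 had 1 young and 11 aged clonotypes, but 7 and 12 cells, as the largest young clone used this pair. TRBV1 with TRBJ2-4 had 0 young and 6 aged clonotypes, and TRBV31 with TRBJ1-4 had 0 and 5. For 0 of 220 clonotypes the young share could still be up to 1.36%, counting 3 clonotypes as the limit.

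TRAV12-1 with TRAJ22 was the alpha pair with the largest rise, from 0 to 5 clonotypes and from 0 to 126 cells. These 5 held only 2 alpha CDR3s. The clonotypes of 99 and 73 cells and another of 2 cells with no beta chain had the alpha CDR3 shown above, and the clonotype of 17 cells and another of 1 cell shared a longer alpha CDR3 and the same beta CDR3.
17 cells and 1 cell, alpha: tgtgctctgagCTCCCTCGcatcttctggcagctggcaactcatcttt
17 cells and 1 cell, beta: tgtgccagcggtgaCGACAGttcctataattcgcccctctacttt
The beta V segment of this receptor was called TRBV12-2+TRBV13-2 in the clonotype of 17 cells and TRBV13-2 in the single cell. TRAV7D-2 with TRAJ33 and TRAV16N with TRAJ12 each had 0 young and 3 aged clonotypes, whereas TRAV7-5 with TRAJ31 had 4 and 0 and TRAV12D-2 with TRAJ18 had 2 and 0. Of these, only the interval for TRAV7-5 with TRAJ31 left out 0 (difference -2.07, -5.22 to -0.226).

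By clonotype, neither mean CDR3 length nor the share of CDR3s of 15 or more residues separated the libraries. The mean beta CDR3 had 14.0 ± 1.45 residues (SD, 230 chains) in YTBI_Isotype and 14.0 ± 1.43 (461 chains) in ATBI_Isotype, a difference of -0.0348, and the mean alpha CDR3 had 13.8 ± 1.31 (207 chains) and 13.6 ± 1.39 (364 chains). Beta CDR3s of 15 or more residues were in 38.6% of young and 35.9% of aged clonotypes, a difference of -2.78 points (-10.9 to 5.18), and alpha CDR3s of that length in 32.1% and 27.7% (difference -4.43, -12.9 to 3.83). By cell the shares were 39.3% and 38.7% for beta and 29.5% and 31.1% for alpha. Without the largest clonotype of each library the alpha difference by cell turned from 1.58 to -7.00 points (-14.4 to 0.0429). The beta difference went from -0.541 to -6.04 points (-13.1 to 0.815).

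The similar shares over all cells hid a change in the shape of the distribution. In aged cells the beta lengths had 2 peaks, at 12 residues with 274 of 1016 chains and at 15 residues with 317. Of these, 216 (78.8%) and 174 (54.9%) came from the 3 largest clonotypes of that length. By clonotype the aged distribution had its single peak at 14 residues, as the young one did on both counts. Alpha chains of 16 residues showed the same, with 105 aged chains, of which 86 were in 3 clonotypes, and 12 young chains.

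**Figure D5:**
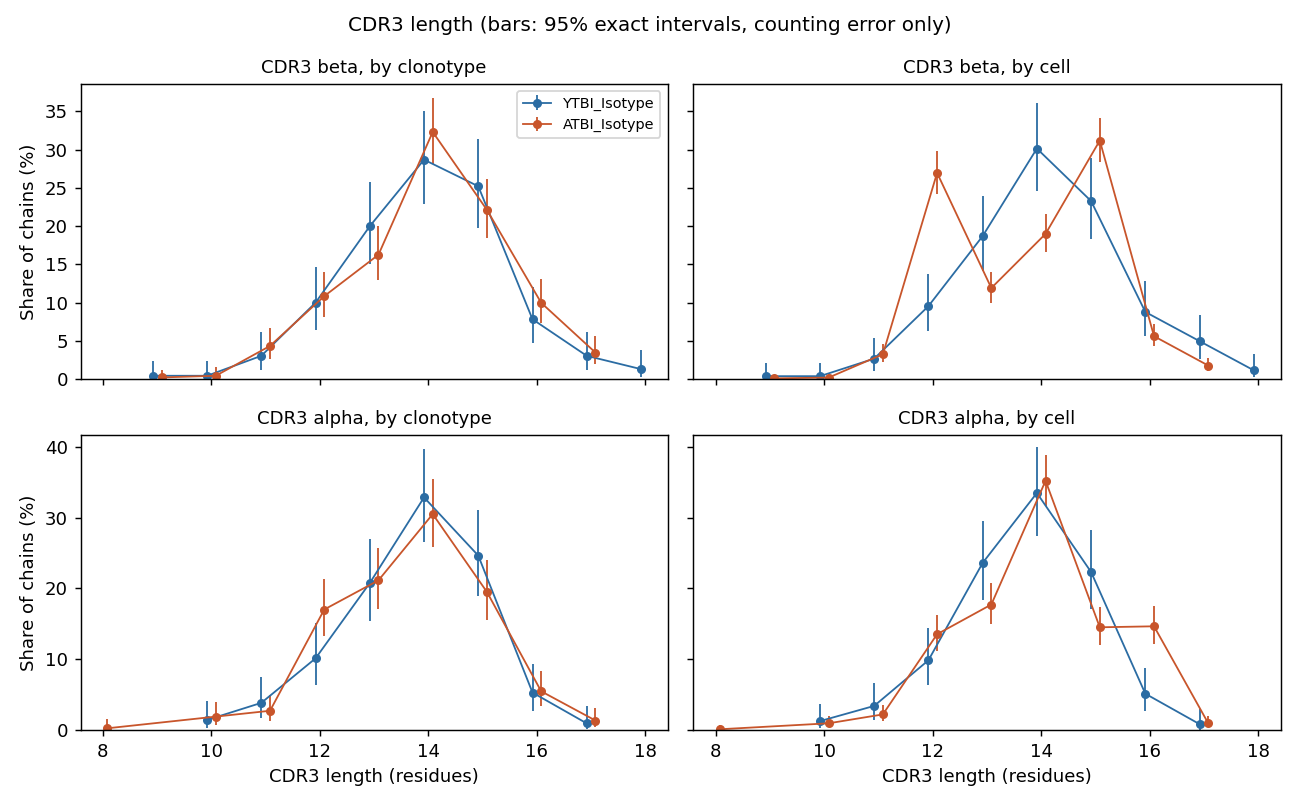
Share (%) of beta (top) and alpha (bottom) chains by CDR3 length in residues, by clonotype (left) and by cell (right); points are the single library of each age and bars are 95% exact intervals for counting error. By clonotype the curves of both ages peak at 14 residues, and by cell the aged beta curve has peaks at 12 and 15 residues.

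Each CDR3 was also read against the germline V and J segments of its own call, and the bases outside both were counted. This count does not measure how far the V and J segments were trimmed. Germline segments matched 95.2% of young and 96.3% of aged beta chains and all alpha chains. Beta chains counted once per clonotype had 10.4 ± 4.18 bases outside both segments (SD, 219 chains, the D segment included) in the young and 9.92 ± 3.93 (444 chains) in the aged library, and 6 or fewer such bases in 17.4% and 20.5% of chains, a difference of 3.14 points (-3.61 to 9.41). Alpha chains had 2.42 ± 1.95 (207 chains) and 2.60 ± 2.22 (364 chains), with 3 or fewer bases in 72.0% and 70.1%, a difference of -1.93 points (-9.73 to 6.19). By cell the aged means were 9.41 bases for beta and 3.14 for alpha, against 10.5 and 2.43 in the young library. The aged beta mean by cell depends on 1 base, T5C. The clonotype of 99 cells counted with 12 bases outside germline and that of 73 cells with 5, although their beta CDR3s differ only there.

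Few receptor chains were common to any 2 libraries, of the same or of different age. Of 230 young and 457 aged beta chains, 0 shared V segment, J segment and CDR3 nucleotides, and 1 pair (TRBV12-1 with TRBJ1-2) shared the CDR3 as protein. Of 192 young and 341 aged alpha chains 5 were identical in nucleotides, 2.60% of the young and 1.47% of the aged chains, and 3 of these were the invariant chains above. The young libraries had 1 beta and 3 alpha chains in common by nucleotides, and the aged libraries 0 and 8. The other two of the 5, TRAV10N with TRAJ22 and TRAV4D-3 with TRAJ17, had 0 bases outside the germline segments.
TRAV10N with TRAJ22: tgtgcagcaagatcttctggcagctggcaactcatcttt
TRAV4D-3 with TRAJ17: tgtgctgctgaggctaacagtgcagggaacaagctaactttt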

How the data were processed

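TCR libraries (10x 5′ v2 chemistry) were processed by the authors with Cell Ranger 7.2.0, and the submitters' notes name the builds mm9 and mm10, of which the methods give mm10. The authors deposited, per library, annotated contigs with read and UMI counts and contig length in bases (another kind of value, not used here), and clonotype tables with cell counts and the proportion of cells as a fraction (not used). Here contigs were read as deposited and counted per clonotype and per cell with Python 3.11.15, pandas 2.3.3, numpy 2.4.6 and scipy 1.17.1. A clonotype or cell with several chains of a locus counted once for each segment it carried. No doublet caller was run. The 10 young and 12 aged cells with more than 1 beta chain were kept, and an alternative dropped them, together with any cell holding over 2 alpha chains. UMIs differ in depth between libraries, and a missed alpha chain lowers the alpha totals. Germline segments came from GENCODE vM21.

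For each segment set, the text names the 3 largest differences each way by clonotype and the 2 largest by cell, and 3 pairs each way. The members and lists were chosen with earlier results of these data known. Clones were named by size or by the segments they carry, and the germline positions, TRBJ2 subsets and length peaks after their values were seen. Alternatives changed the clonotype definition, the cells and chains kept, and the minimum and fold for a call. Counting was tested on simulated data.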

Additional observations from a re-analysis of the deposited data

Results flagged for a closer look

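Among the 55 segments compared and the grouped shares, 10 values of the aged minus young difference had opposite signs in the isotype and the anti-CD49d pair, with an interval for counting error that left out 0 in each pair. The difference between the pairs was not tested, since each has 1 library per age. By clonotype this was TRBV31, at 4.42 percentage points under isotype (0.969 to 7.38) and -4.72 under anti-CD49d (-7.60 to -2.10). The other 9 were by cell. TRBV31 differed by 2.80 and -9.86 points, TRBV10 by -2.87 and 3.55, the joint TRBV12-2+TRBV13-2 call by -11.4 and 6.04, and the TRAV segments next to the J segments by -3.02 and 4.31. TRBJ1-2 differed by 14.8 and -2.34, TRBJ2-3 by -5.44 and 4.11, TRBJ2-7 by -6.59 and 4.52, TRAJ9 by 9.03 and -1.70, and TRAJ34 by -3.45 and 8.80 points. Without clonotypes of 10 or more cells, TRBV31 alone of these 9 kept intervals that left out 0 in both pairs, at 6.06 (2.90 to 8.80) and -4.29 points (-6.82 to -2.03). TRBJ2-7 then changed sign in both pairs, to 3.29 and -6.67. TRBV10 and the joint call then had the same sign in both pairs, and TRBJ1-2 and TRAJ9 differed by 0.00966 and 0.313 points under isotype. In ATBI_Isotype the clones of 99 and 73 cells carried TRBJ1-2 and the clone of 109 cells carried TRAJ9. In ATBI_aCD49d the largest clone, of 101 cells, carried the joint call, and the next one, of 78 cells, carried TRBV10, TRBJ2-7 and TRAJ34.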

How the results depend on the processing

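Each age was 1 pool of 2 mice, so age, supplier and library cannot be told apart, and 220 young clonotypes with a beta chain left most single segments within counting error. Of 258 recomputed values of counts, shares and pair numbers, 230 stayed within the interval or within 1.5-fold of the value reported, and 13 of the 19 named segment values whose interval left out 0 kept their sign under every alternative run. The TRBJ2 difference by clonotype kept an interval below 0 under each of its alternatives, from -14.9 to -9.03 points. By clonotype the intervals of TRBV31 (3.54) and TRBV19 (-4.25) reached 0 with only cells that had both chains, and that of TRBJ2-4 without cells with extra chains (-4.54) or with clonotypes of 1 cell only (-5.21). Another 3 alternatives were chosen after seeing the data: joint calls counted as TRBV13-2, near-identical clonotypes joined, and clonotypes of 1 cell only. The remaining values were obtained with other cells, chains or segments kept, with segments joined by family, or with another rule for a call. Without clonotypes of 10 or more cells, the TRBJ2 difference by cell was -14.2, TRBV14 -2.55, TRBV19 -5.10, TRAJ22 -2.60 and TRBJ2-7 3.29 points, and 5 TRAJ segments passed 1.5-fold by cell. Without the largest clonotype of each library, TRBV19 was -1.59, TRAJ9 -1.04 and alpha CDR3s of 15 or more residues by cell -7.00. With clonotypes of 1 cell only, the TRBJ2 difference was -9.03, TRBV14 -0.930, TRBV19 -6.15, TRBV13-1 0.180, TRBJ2-7 3.89 and long alpha CDR3s by cell -6.34 points, with 3 TRBJ and 3 TRAV segments past 1.5-fold on either count and 6 TRAJ segments by cell. With a 2-fold call, 2 TRBV, 0 TRBJ, 2 TRAV and 3 TRAJ segments passed by clonotype, and 5 TRBJ and 3 TRAV segments by cell. With at least 20 clonotypes, 6 TRBV, 1 TRAV and 2 TRAJ segments passed by cell, and 1 TRAV and 1 TRAJ segment by clonotype. With segments joined by family, 4 TRBV segments passed by clonotype. With chains of at least 2 UMIs, 3 TRAV and 6 TRAJ segments passed by cell. With 1 chain of each locus, 3 TRAV segments passed by cell. Without TRAV11 with TRAJ18 clonotypes, 3 TRBJ segments passed by clonotype and 3 TRAV segments by cell, the alpha pair difference was -0.0323, and the TRAV11 with TRAJ18 share itself has no value. No paired analysis was possible because the isotype comparison had 1 library per age, and the other aged and young libraries came from mice given a different antibody.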
